A study of Mus musculus with 6 samples.

Results

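The genes described here encode the liver's conjugating transferases: UDP-glucuronosyltransferases (Ugt1a, Ugt2a, Ugt2b and Ugt3a genes), cytosolic sulfotransferases (Sult genes) and soluble glutathione transferases (Gsta, Gstm, Gsto, Gstp, Gstt and Gstz genes). They were taken by symbol, as every protein-coding gene of these names in the count table, which gave 61 genes (20 glucuronosyltransferases, 20 sulfotransferases and 21 glutathione transferases) of 37991 gene IDs. RNA-seq had been carried out on livers of 12-week-old males, 3 C57BL/6J wild-type animals (WT) and 3 B6.Zpbp2-/- animals of the same strain (Zpbp2 KO), with 1 library per liver. The product of Zpbp2 is known from sperm, where it takes part in binding to the zona pellucida of the egg. The labels limit the knockout to no tissue. The extent of the deletion was not given in the sources used here.

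Conjugation makes a drug, hormone or waste product more soluble in water by adding a large polar group, so that it can leave the cell in bile or urine. Glucuronosyltransferases sit in the endoplasmic reticulum and use UDP-glucuronate, sulfotransferases are cytosolic and use the sulfate donor PAPS, and glutathione transferases join reactive electrophiles to glutathione. Hepatocytes are rich in all 3 kinds of enzyme, and the genes are known as targets of the receptors CAR, PXR and AHR and, for many glutathione transferases, of the antioxidant factor NRF2.

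Libraries held 37904891 to 52955687 counts, and the 61 genes took 1.05% to 1.16% of them. Values are CPM, counts scaled to a common library size after TMM normalisation, and each is given per liver in the order of replicates 1 to 3. Zpbp2 had 4, 13 and 7 counts in the WT libraries and 0, 0 and 0 in the knockout libraries, in accord with the labels. Hepatocyte markers summed to 106482 to 111899 CPM in WT livers and 114336 to 120605 CPM in Zpbp2 KO livers, while markers of gut, pancreas and fat summed to at most 84.4 CPM and the pancreatic gene Prss1 had no count. In whole liver, fewer cells of a type and less RNA per cell cannot be told apart.

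No transferase gene passed the test between genotypes. Of the 61 genes, 41 had enough counts to be tested, and 0 of the 41 were called by edgeR's quasi-likelihood test, by DESeq2 or by limma-voom. Over all 14686 tested genes, edgeR called 2 (0.0136%), limma-voom 2 (0.0136%) and DESeq2 76 (0.517%). The smallest Benjamini-Hochberg adjusted p of a transferase gene was 0.798 in edgeR's quasi-likelihood fit and 0.459 in DESeq2. At an unadjusted p below 0.05 the same edgeR test held 9 of the 41 genes (22.0%), beside 5.79% of all tested genes. Of these, 6 had higher values in the knockout livers (2.86% of all genes did) and 3 had lower values (2.93% of all genes). Many genes of a family lie side by side and some share sequence, so the 41 are not all independent of each other.

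By superfamily, the values are those in the plot of fold changes by family, and no test of a difference between superfamilies was made. Among glucuronosyltransferases, 13 of 16 tested genes had a log2 fold change below 0 (47.1% of all genes did), with a median of -0.13. All 6 tested sulfotransferases were above 0, with a median of 0.31. Glutathione transferases were mixed, with 13 of 19 above 0 and a median of 0.11, which was 0.01 without Zpbp2 KO replicate 1, 0.02 without WT replicate 2 and 0.19 without WT replicate 1. Over the 41 genes the median was 0.02 and the range -0.82 to 0.67, beside a median of 0.01 over all genes. Under the alternative fits the count below 0 ran from 11 to 15 of 16 for glucuronosyltransferases, from 0 to 1 for sulfotransferases and from 5 to 9 of 19 for glutathione transferases. The sign of each superfamily's median was the same in all of these fits.

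**Figure D1:**
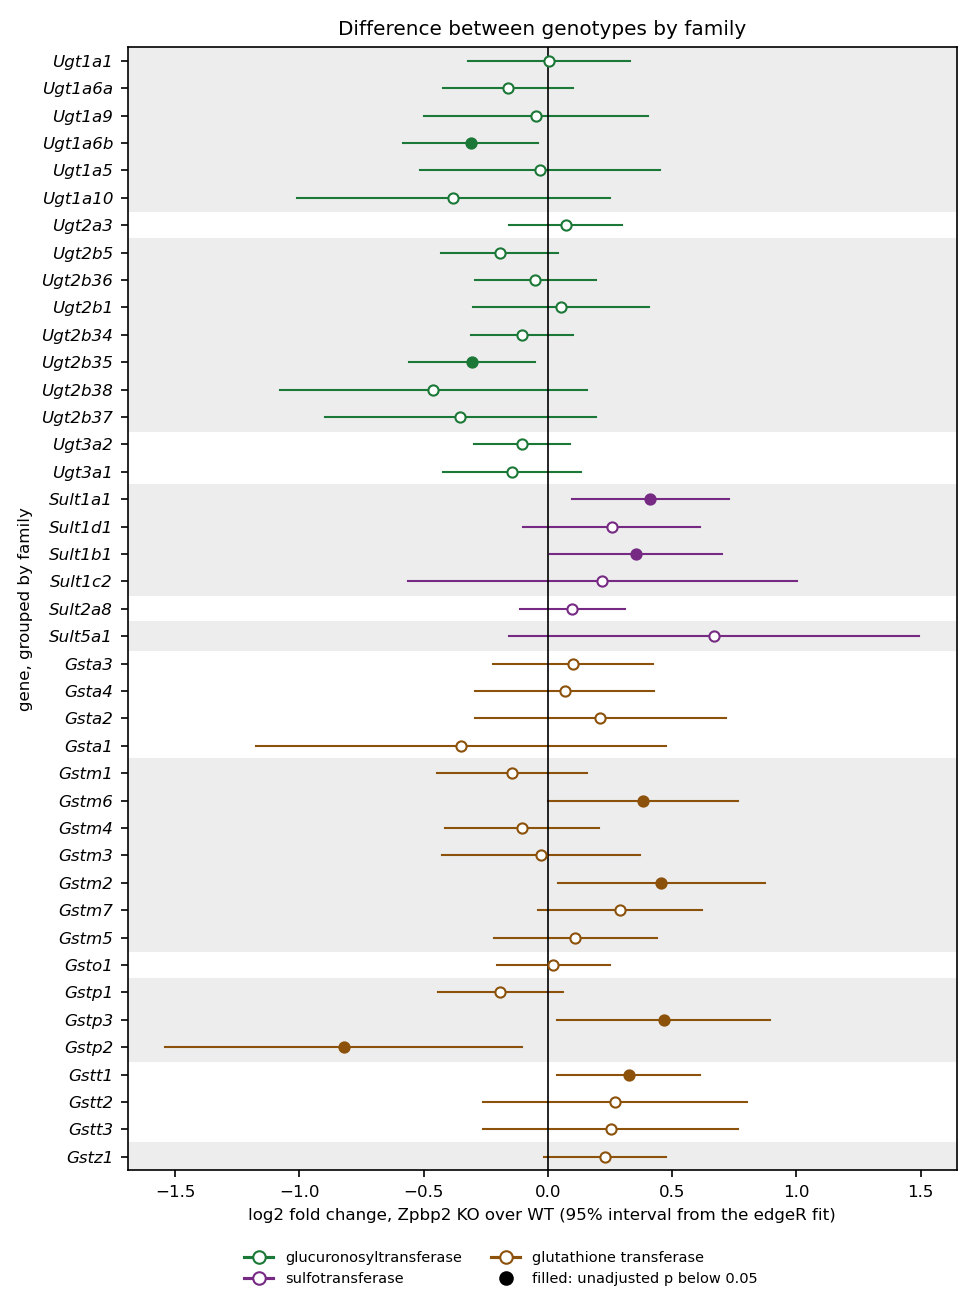
Log2 fold change of each of the 41 tested transferase genes (points, Zpbp2 KO over WT) with its 95% interval from the edgeR fit (lines), coloured by superfamily; filled points have an unadjusted p below 0.05 and 0 genes were called. Most glucuronosyltransferases (green) lie left of 0, all 6 sulfotransferases (purple) lie right of it, and Gstp2 (-0.82) and Sult5a1 (0.67) are the ends of the range.

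These counts moved with single livers. Without WT replicate 2, the genes with an unadjusted p below 0.05 were 1 higher and 1 lower, without WT replicate 3 the counts were 3 and 1, without Zpbp2 KO replicate 1 or replicate 2 they were 1 and 1, and without Zpbp2 KO replicate 3 they were 8 and 4. The count over all tested genes moved too, from 850 to 591 without WT replicate 2, 566 without WT replicate 3, 655 without Zpbp2 KO replicate 1, 908 without Zpbp2 KO replicate 2 and 1992 without Zpbp2 KO replicate 3. With offsets for transcript length and GC content in the fit, 1 gene was higher and 6 were lower, and the median over the 41 genes went to -0.05. The 9 genes kept their sign in 135 of 135 alternative values and had an unadjusted p below 0.05 in 87 of them. These genes were picked by the main fit and the alternatives reuse its livers, so a kept sign is not independent evidence of a difference. The length and GC offsets took Gstt1 from 0.32 to 0.18, Gstm2 from 0.46 to 0.30, Gstm6 from 0.38 to 0.24 and Gstp3 from 0.47 to 0.28. Leaving out Zpbp2 KO replicate 2 gave 0.30 for Gstm2, 0.23 for Gstm6, 0.27 for Gstp3 and -0.53 for Gstp2, leaving out Zpbp2 KO replicate 1 gave 0.22 for Sult1b1, and leaving out WT replicate 2 gave 0.21 for Gstt1.

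Levels were set side by side per kilobase, since long transcripts give more reads, using the length of 1 principal GENCODE transcript per gene. Gstp1 was the most abundant, at 1748 CPM per kilobase (1468 to 1983 over the 6 livers), above Gstm1 at 1054 (916 to 1242) and Gsta3 at 927 (788 to 1115). The last 2 overlapped each other and stood above Ugt2b5 at 523 (484 to 623), the most abundant glucuronosyltransferase on this scale. The order depends on that choice. Per kilobase of all exons of a gene merged, Gstp1 (927) and Gstm1 (922) were level, and Gsta3 (311) stood below Ugt2b5 (523). Per kilobase of the principal transcript, Sult2a8 followed Ugt2b5 at 395, with Gstz1 at 385 and Ugt2b36 at 381, 3 genes whose ranges overlapped. Per kilobase of merged exons these 3 were apart, with Sult2a8 at 258, Gstz1 at 125 and Ugt2b36 at 350, and Ugt2b1 stood at 277. A single gene held most reads of several families. Gstp1 took 98.8% of the summed Gstp CPM, Gsta3 94.1% of Gsta, Gstm1 78.4% of Gstm, Gstt1 73.9% of Gstt and Sult1a1 61.9% of Sult1. Ugt1a genes were left out of this order because 40.8% to 94.5% of their exon bases belong to more than 1 gene.

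**Figure D2:**
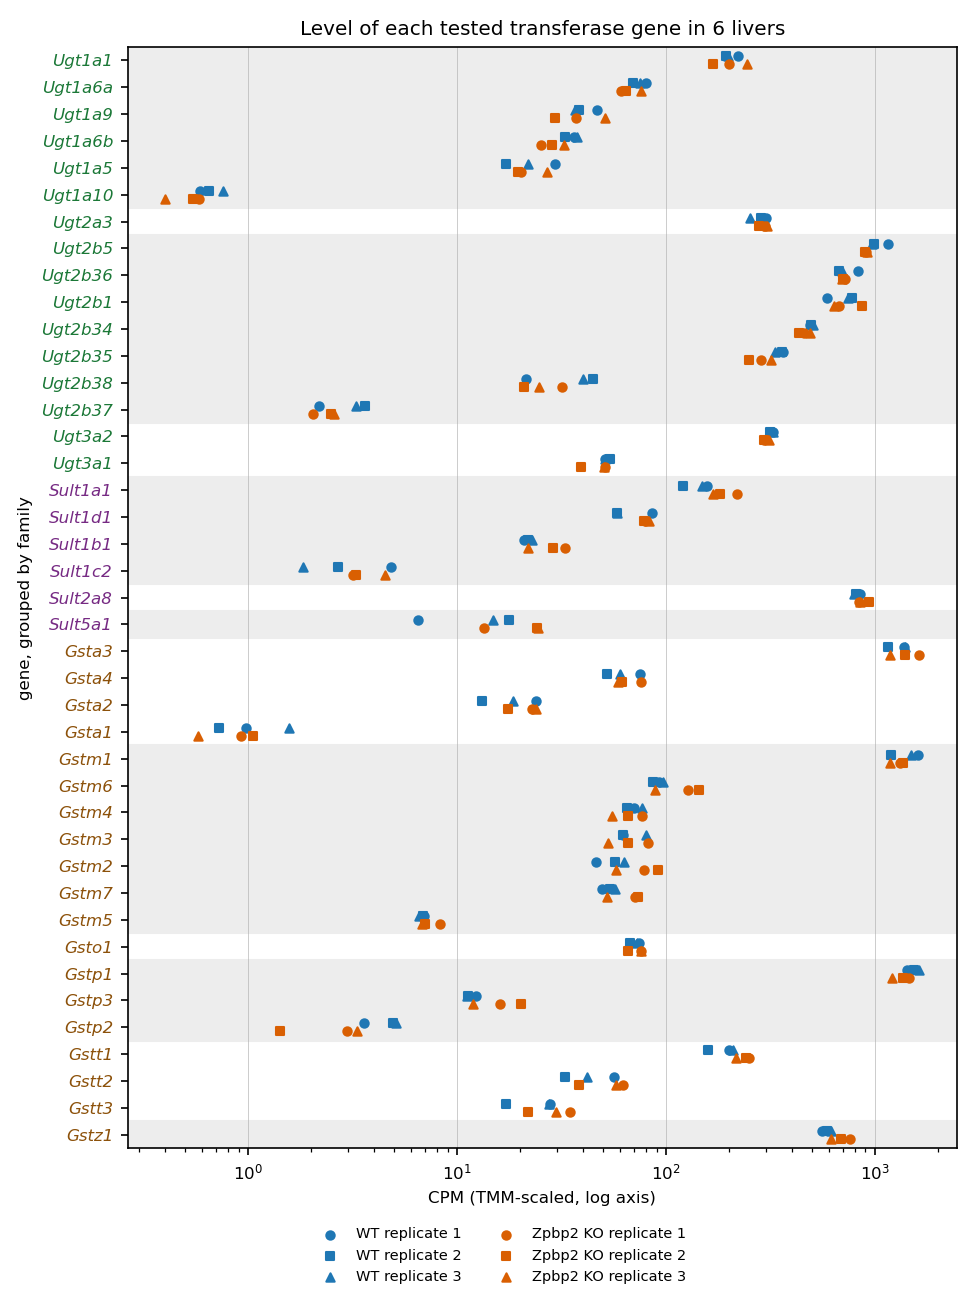
Level of each tested transferase gene in CPM (horizontal log axis) in the 3 WT livers (blue) and the 3 Zpbp2 KO livers (orange), with the marker shape giving the replicate number, sorted by family and then by mean level. The genes span from Ugt1a10 and Gsta1, near 1 CPM, to Gstm1, Gstp1 and Gsta3 at the right edge, and the genotypes overlap for most of them.

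The 20 genes under the filter on low counts reached at most 0.307 CPM in any liver. Sult1c1, Sult2a3, Sult2a4, Sult2a5, Sult2a6, Sult3a2 and Sult6b1 had 0 counts in all 6 libraries, which allows up to 0.0103 CPM with 3 counts over the 6 libraries together as the limit. Several Sult2a and Sult3a genes are known to be female-biased in mouse liver, and all animals here were male. Sult1e1, the estrogen sulfotransferase, had 10 counts in all, Sult2b1 24, Sult4a1 17, Sult6b2 8, Sult2a2 5, Sult2a1 4 and Sult3a1 3. Among the other families Ugt1a7c had 45, Ugt1a2 41, Gsto2 28, Ugt1a8 7, Gstt4 2 and Ugt2a2 2. Sult2a7 and Ugt2a1 were not analysed here.

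Glucuronosyltransferases together were slightly lower in the knockout livers. Their summed level was 4538, 4343 and 4273 CPM in WT livers and 4056, 4109 and 4173 CPM in Zpbp2 KO livers, a ratio of means of 0.938. Each knockout liver stood under each WT liver, by a small margin, and sums over genes were not tested. The same held for the 7 Ugt2b genes together, which include the liver's main steroid and bile acid glucuronosyltransferases (3352 ± 86.6 and 3109 ± 65.3 CPM, SD, n = 3), and for the 2 Ugt3a genes (374 ± 4.83 and 347 ± 14.0 CPM). Summed CPM of the 9 Ugt1a genes overlapped, at 379 ± 32.7 and 363 ± 62.6 CPM. Gene by gene, 5 of 16 glucuronosyltransferases were lower without overlap and 0 were higher, beside 6.01% of all tested genes lower and 5.56% higher without overlap.

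**Figure D3:**
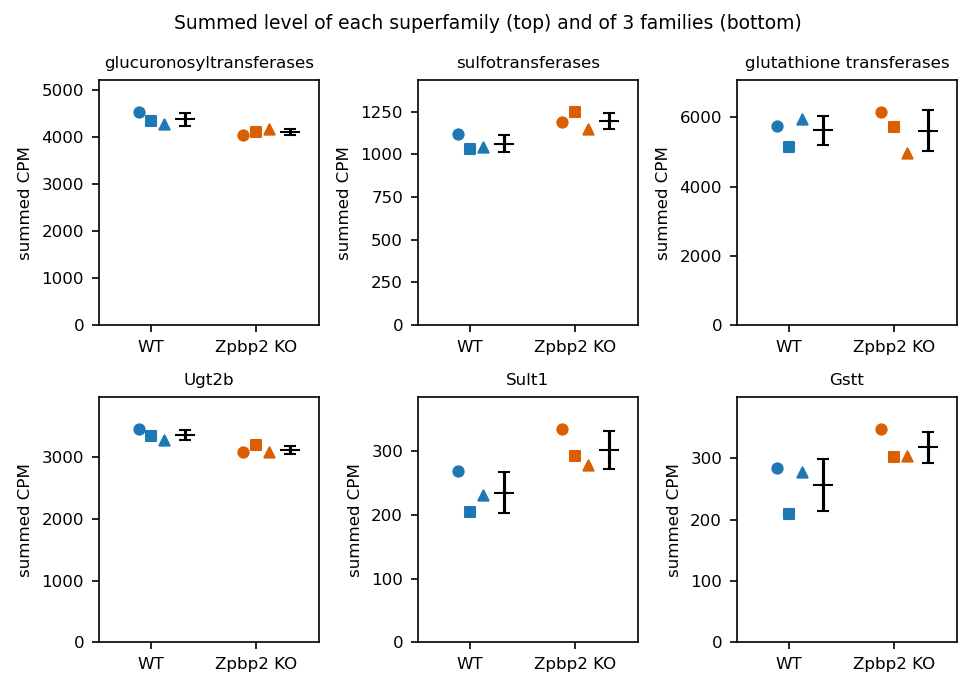
Summed CPM of the 3 superfamilies (top) and of the Ugt2b, Sult1 and Gstt families (bottom) in each liver (markers, shape by replicate number), with mean and SD in black; axes start at 0. WT and Zpbp2 KO livers are separated, by small margins, for glucuronosyltransferases and Ugt2b (lower in Zpbp2 KO) and for sulfotransferases, Sult1 and Gstt (higher, Gstt with overlap when scaled by library totals), and overlap for glutathione transferases.

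Ugt1a genes, on chromosome 1, each have their own first exon and share the later exons, so that reads from the shared part cannot be told apart between them. How the authors' counting treated such reads was not given in the sources used here. Ugt1a1, the bilirubin glucuronosyltransferase, stood at 221, 193 and 198 CPM in WT livers and 200, 168 and 245 CPM in knockout livers. The groups overlapped, with the highest and the lowest value both in knockout livers (log2 fold change 0.00 ± 0.142, 95% interval -0.32 to 0.33). Ugt1a6a and Ugt1a6b encode near-identical enzymes for simple phenols. Ugt1a6a was at 80.4, 69.4 and 75.3 CPM in WT livers and 61.1, 64.3 and 76.1 CPM in knockout livers, with overlap (-0.16 ± 0.115). Ugt1a6b (ENSMUSG00000090145) was at 36.4, 32.8 and 37.4 CPM in WT livers and 25.3, 28.3 and 32.3 CPM in knockout livers. All 3 knockout values of Ugt1a6b lay under all WT values, the highest of them close to the lowest WT value (-0.31 ± 0.119, unadjusted p = 0.0300 by edgeR).

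The coding sequences of these 2 genes are 98.4% identical and differ at 26 of 1596 positions, so a short read often does not tell them apart, and 70.9% of all 100-base windows of Ugt1a6b also occur in another gene. Both lie in the Ugt1a cluster, at chr1:88134809-88218997 (Ugt1a6a) and chr1:88103252-88219003 (Ugt1a6b) on the plus strand of GRCm38. A stretch of the first exon that is rich in differences shows what a read has to cover to be assigned. Bases 281 to 360 of the coding sequences are given, with the 13 positions that differ in capitals.
Ugt1a6a: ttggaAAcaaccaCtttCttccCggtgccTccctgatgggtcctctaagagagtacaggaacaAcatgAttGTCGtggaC
Ugt1a6b: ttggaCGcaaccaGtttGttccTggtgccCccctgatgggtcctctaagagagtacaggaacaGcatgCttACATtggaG
Between the isolated differences runs an identical stretch, in which no base tells the 2 genes apart. A read of 100 bases that spans it also covers bases that differ. Ugt1a6b took 31.1%, 32.1% and 33.2% of the counts of the pair in WT and 29.3%, 30.6% and 29.8% in knockout livers. Summed before the fit, an alternative chosen after seeing the data, the pair stood at 111 ± 7.47 CPM in WT livers and 95.8 ± 11.4 CPM in knockout livers (SD, n = 3), with overlap and a log2 fold change of -0.21 ± 0.113.

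Other Ugt1a genes were less abundant. Ugt1a9 had a log2 fold change of -0.05 and Ugt1a5 of -0.03, both with overlap. Ugt1a10, at 0.59, 0.65 and 0.76 CPM in WT livers and 0.59, 0.55 and 0.40 CPM in knockout livers, was lower without overlap at very low counts (-0.38 ± 0.275). It was named after its values were seen.

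Promoter sequence was read for 54 of the 61 genes from RefSeq (GRCm38.p6), as 65 windows from 250 bases before to 50 bases after a start. HNF1 factors, which maintain hepatocyte transcription and are known to act on Ugt1a promoters, bind a palindrome, of which the letters GTTAAT, 1 base of any kind and ATT, on either strand, were found in 8 of the 65 windows (12.3%), against 0.399% of 32851 windows of all genes. The 8 belong to Ugt1a1, Ugt1a9, Ugt1a10, Sult1d1, Sult2a3, Sult2a4, Sult2a5 and Sult2a6, and genes of a duplicated cluster share ancestry. They are shown because they set expressed genes beside silent ones with the same letters. Each line is 50 bases long, on the gene's own strand, with the match in capitals. In the Ugt1a genes the letters are read from the opposite strand.
Ugt1a1, chr1:88211894-88211943, plus strand: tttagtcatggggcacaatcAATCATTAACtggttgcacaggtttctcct
Ugt1a9, chr1:88070664-88070713, plus strand: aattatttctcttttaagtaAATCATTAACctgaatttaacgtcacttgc
Ugt1a10, chr1:88055316-88055365, plus strand: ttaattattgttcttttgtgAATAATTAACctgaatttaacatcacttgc
Sult1d1, chr5:87569056-87569105, minus strand: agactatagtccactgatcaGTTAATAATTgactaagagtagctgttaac
Sult2a3, chr7:14123070-14123119, minus strand: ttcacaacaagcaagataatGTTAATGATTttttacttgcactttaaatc
Sult2a4, chr7:13989666-13989715, minus strand: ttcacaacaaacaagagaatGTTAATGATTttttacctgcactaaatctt
Sult2a5, chr7:13623919-13623968, plus strand: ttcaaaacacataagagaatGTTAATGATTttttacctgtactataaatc
Sult2a6, chr7:14254912-14254961, minus strand: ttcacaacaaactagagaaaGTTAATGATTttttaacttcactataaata
The 4 Sult2a genes of this set had 0 counts, while Ugt1a1 had 204 ± 15.0 CPM in WT (SD, n = 3), Sult1d1 67.2 ± 15.7 CPM and Ugt1a9 40.6 ± 5.53 CPM. The match begins 45 bases before the RefSeq start in Ugt1a1, 95 in Ugt1a9, 75 in Ugt1a10, 79 in Sult1d1, 51 in Sult2a3, 107 in Sult2a4, 28 in Sult2a5 and 71 in Sult2a6. A match of letters is not a bound site. The antioxidant response element core TGACNNNGC was in 3 windows (4.62%, those of Gsta3, Gstm5 and Gstm7, against 12.4% of all), and the xenobiotic response element core GCGTG in 13 (20%, against 32.4%). The TATA box letters TATAAA were in 14 windows (21.5%, against 13.6%), CCAAT in 27 (41.5%, against 37.4%) and the receptor repeat, AGGTCA and again AGGTCA after 1 base of any kind, in 0 (against 0.0396%).

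Ugt2b and Ugt2a genes cluster on chromosome 5 and make enzymes for steroids, bile acids and drugs. Ugt2b5, the most abundant, stood at 1157, 989 and 963 CPM in WT livers and 907, 900 and 911 CPM in knockout livers. The knockout livers lay close together and under every WT liver (-0.19 ± 0.103). Because Ugt2b5 and Ugt2b38 coding sequences are 97.0% identical, their counts were also summed, which gave 1072 ± 93.7 CPM in WT livers and 932 ± 9.58 CPM in knockout livers (SD, n = 3), again without overlap (-0.20 ± 0.0988). Ugt2b35 (ENSMUSG00000035811) shares no 100-base window with another gene. It was at 363, 360 and 331 CPM in WT livers and 284, 250 and 317 CPM in knockout livers. Its groups did not overlap, with knockout replicate 3 nearest to WT (-0.31 ± 0.111, unadjusted p = 0.0232 by edgeR, 95% interval -0.56 to -0.05).

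For Ugt2b36 the values were 829, 676 and 694 CPM in WT livers and 720, 706 and 697 CPM in knockout livers, with overlap (-0.05 ± 0.107). Ugt2b1 (0.05 ± 0.155) and Ugt2b34 (-0.11 ± 0.0897) overlapped too. The low-level genes Ugt2b38 (-0.46 ± 0.269) and Ugt2b37 (-0.35 ± 0.237) had wide errors. Ugt2a3 was at 301, 285 and 254 CPM in WT livers and 298, 279 and 305 CPM in knockout livers, with overlap (0.07 ± 0.0997). The Ugt3a genes on chromosome 15 use sugar donors other than UDP-glucuronate. Ugt3a2 stood at 326, 315 and 326 CPM in WT livers and 293, 295 and 311 CPM in knockout livers, lower in each knockout liver by a small step (-0.10 ± 0.0850). Ugt3a1 was at 51.2, 53.9 and 50.8 CPM in WT livers and 51.3, 39.2 and 50.5 CPM in knockout livers, where only replicate 2 was clearly lower (-0.15 ± 0.121).

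Sulfotransferases together were higher in the knockout livers. Their summed level was 1119, 1031 and 1043 CPM in WT livers and 1189, 1249 and 1151 CPM in knockout livers, a ratio of means of 1.12 without overlap. The Sult1 genes alone stood at 268, 204 and 231 CPM in WT livers and 334, 292 and 277 CPM in knockout livers. Of the summed sulfotransferase level most was Sult2a8, the bile acid sulfotransferase of mouse liver.

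Sult1a1 (ENSMUSG00000030711, chromosome 7), the phenol sulfotransferase, had the smallest unadjusted p of all transferase genes. It was at 157, 121 and 149 CPM in WT livers and 218, 181 and 168 CPM in knockout livers. Every knockout liver exceeded every WT liver, and the mean went from 142 ± 18.9 to 189 ± 26.1 CPM (SD, n = 3). The log2 fold change was 0.41 ± 0.138, with a 95% interval of 0.10 to 0.73 (unadjusted p = 0.0169 by edgeR). Sult1b1 (ENSMUSG00000029269, chromosome 5), which sulfates thyroid hormones, was at 20.8, 21.8 and 22.7 CPM in WT livers and 32.8, 28.9 and 21.9 CPM in knockout livers. Knockout replicates 1 and 2 were above WT and replicate 3 was within the WT range (0.36 ± 0.151, unadjusted p = 0.0455 by edgeR).

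Its neighbour Sult1d1, whose enzyme sulfates catecholamines, was at 85.2, 58.3 and 58.0 CPM in WT livers and 79.5, 78.6 and 82.8 CPM in knockout livers. WT replicate 1 was the highest liver and the other WT livers the lowest (0.26 ± 0.155). Sult2a8 was at 844, 810 and 796 CPM in WT livers and 842, 933 and 850 CPM in knockout livers, with overlap (0.10 ± 0.0923). Sult5a1 had the highest fold change with all livers in the fit and a wide error. It was at 6.52, 17.7 and 14.8 CPM in WT livers and 13.5, 24.2 and 24.3 CPM in knockout livers, with overlap (0.67 ± 0.361, 95% interval -0.16 to 1.49). The value was 0.34 without WT replicate 1, where Gstp3 at 0.51 was higher, and 0.96 without WT replicate 2. The unadjusted p of Sult5a1 was 0.0996 by edgeR and fell below 0.05 in 4 of 15 alternatives. The smallest was 0.00184, with the replicate block (Benjamini-Hochberg adjusted p = 0.497 by edgeR). Sult1c2 was below 5 CPM in every liver (0.22 ± 0.341).

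The summed level of the glutathione transferases was nearly the same in both groups, although 13 of 19 genes were above 0, and Gstp1, Gstm1 and Gsta3 carried most of the sum. It was 5749, 5151 and 5954 CPM in WT livers and 6150, 5719 and 4971 CPM in knockout livers, a ratio of means of 0.999. The lowest and the highest liver were both knockouts, replicates 3 and 1. Knockout replicate 3 had the lowest value of the knockout livers in 14 of 19 tested glutathione transferases and in 7 of 7 Gstm genes, while WT replicate 2 was the lowest WT liver in 4 of 4 Gsta and 3 of 3 Gstt genes. Without overlap, 1 of the 19 genes was higher and 1 lower (10.5% together), close to the 11.6% of all tested genes.

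The theta class acts on small halogenated compounds and lies on chromosome 10. Gstt1 (ENSMUSG00000001663) stood at 199, 158 and 208 CPM in WT livers and 250, 243 and 216 CPM in knockout livers. All knockout livers were above all WT livers, with replicate 3 of each group close to the other (0.32 ± 0.125, unadjusted p = 0.0309 by edgeR, 95% interval 0.04 to 0.61). Gstt2 was at 56.6, 33.0 and 41.9 CPM in WT livers and 62.5, 38.2 and 57.9 CPM in knockout livers, with overlap (0.27 ± 0.232). Gstt3 had a similar fold change and overlap (0.25 ± 0.224). Summed Gstt CPM was 256 ± 41.8 in WT and 318 ± 25.5 in knockout livers (SD, n = 3), without overlap on TMM-scaled sizes but with overlap on library totals (211 to 288 and 287 to 347 CPM).

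Mu class genes, which take up epoxides and other electrophiles, form a cluster on chromosome 3. Gstm1 held most of their reads, at 1601, 1188 and 1491 CPM in WT livers and 1322, 1367 and 1180 CPM in knockout livers. These overlapped (-0.15 ± 0.132). Gstm2 and Gstm6, minor genes of the cluster, had an unadjusted p below 0.05 and overlap between the groups. Gstm2 (ENSMUSG00000040562) was at 46.3, 57.2 and 62.8 CPM in WT livers and 78.7, 91.9 and 57.7 CPM in knockout livers (0.46 ± 0.182, unadjusted p = 0.0357 by edgeR). Gstm6 (ENSMUSG00000068762) was at 92.6, 86.7 and 96.4 CPM in WT livers and 127, 144 and 88.8 CPM in knockout livers (0.38 ± 0.167, unadjusted p = 0.0490 by edgeR). In both, knockout replicates 1 and 2 were high and replicate 3 stood within the WT range. Gstm7 was in the same arrangement (0.29 ± 0.143), and Gstm3 (-0.03), Gstm4 (-0.10) and Gstm5 (0.11) lay near 0.

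Alpha class genes detoxify lipid peroxides and, in mice, aflatoxin. Gsta3 was at 1371, 1148 and 1389 CPM in WT livers and 1625, 1391 and 1177 CPM in knockout livers, with overlap (0.10 ± 0.141). Gsta4, which handles hydroxynonenal, was at 74.9, 52.2 and 59.9 CPM in WT livers and 76.0, 61.3 and 58.7 CPM in knockout livers, with overlap (0.07 ± 0.157). Gsta2 (0.21) and Gsta1 (-0.35) are uncertain, since 28.4% and 80.6% of their 100-base windows occur in another gene. Their sum had a log2 fold change of 0.19 ± 0.213.

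Gstp1, of the pi class on chromosome 19, was at 1422, 1539 and 1628 CPM in WT livers and 1461, 1354 and 1205 CPM in knockout livers. Knockout replicates 2 and 3 were under all WT livers and replicate 1 was within them (-0.19 ± 0.110). With the length and GC offsets the value was -0.36, at an unadjusted p of 0.00344 and a Benjamini-Hochberg adjusted p of 0.618 by edgeR. Gstp2 (ENSMUSG00000038155) had the lowest fold change of all transferase genes. It was at 3.60, 4.95 and 5.11 CPM in WT livers and 2.97, 1.42 and 3.31 CPM in knockout livers, lower in each knockout liver than in any WT liver (-0.82 ± 0.313, unadjusted p = 0.0298 by edgeR). Gstp3 (ENSMUSG00000058216) went the other way, at 12.3, 11.3 and 11.2 CPM in WT livers and 15.97, 20.1 and 11.9 CPM in knockout livers, with knockout replicate 3 within the WT range (0.47 ± 0.187, unadjusted p = 0.0368 by edgeR).

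The Gstp2 value stands beside a near-identical gene that took 98.8% of the family's level, and the coding sequences of Gstp1 and Gstp2 differ at 12 of 633 positions. Gstp1 lies at chr19:4035407-4037985 and Gstp2 at chr19:4040285-4046023, both on the minus strand of GRCm38, and 41.6% of 100-base windows of Gstp2 also occur in Gstp1. Bases 251 to 330 of both coding sequences are shown for the positions on which a read's assignment depends, with the 6 differences in capitals.
Gstp1: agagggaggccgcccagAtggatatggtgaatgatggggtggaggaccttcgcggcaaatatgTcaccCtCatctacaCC
Gstp2: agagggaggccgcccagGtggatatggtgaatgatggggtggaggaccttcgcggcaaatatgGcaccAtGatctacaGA
Gstp2 made up 0.253%, 0.320% and 0.313% of the counts of the pair in WT and 0.203%, 0.105% and 0.274% in knockout livers. WT replicate 1 was just under knockout replicate 3 in this share, so the groups overlapped. Summed, the pair had a log2 fold change of -0.19 ± 0.110, close to that of Gstp1 alone. Whether reads of Gstp1 were assigned to Gstp2 was not tested.

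**Figure D4:**
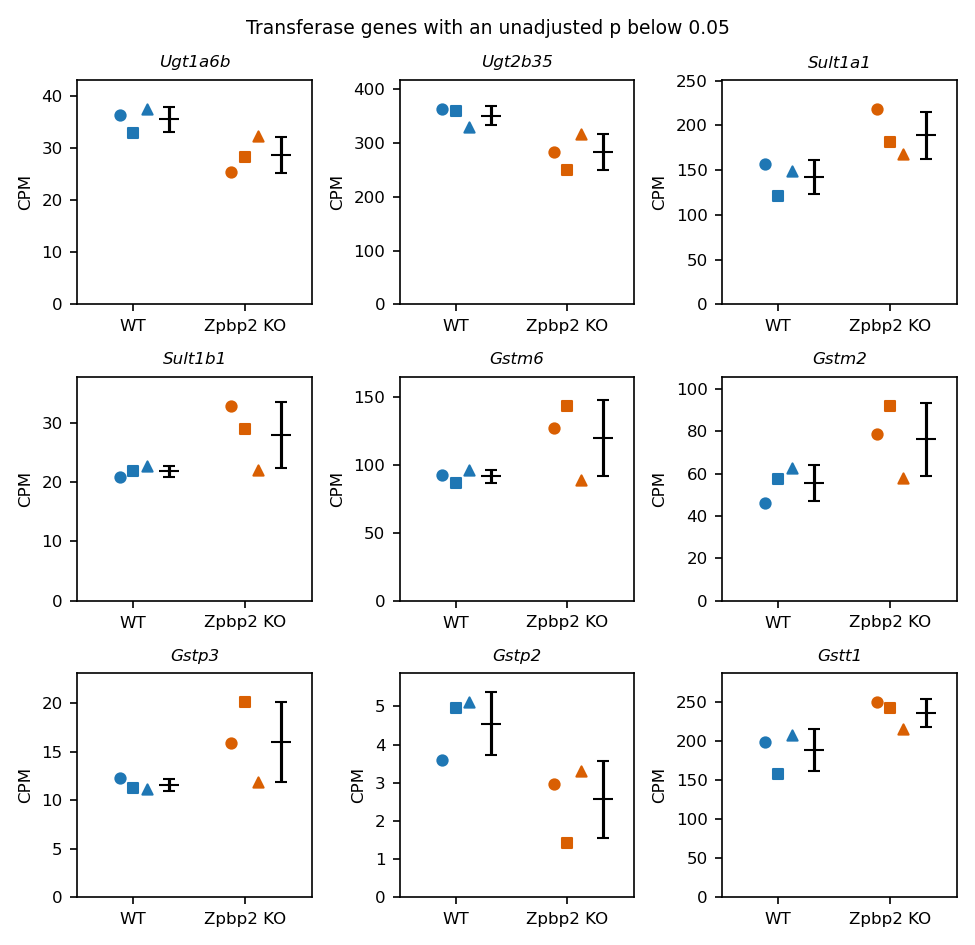
CPM in each liver of the 9 transferase genes with an unadjusted p below 0.05 (blue WT, orange Zpbp2 KO; circle, square and triangle are replicates 1, 2 and 3), with mean and SD in black and axes from 0. Knockout replicate 3 (orange triangle) is the knockout liver nearest to the WT mean in 9 of the 9 panels, and in Sult1b1, Gstm2, Gstm6 and Gstp3 it lies within the WT range.

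The remaining classes have 1 expressed gene each. Gstz1, which isomerises maleylacetoacetate in tyrosine breakdown, was at 554, 586 and 619 CPM in WT livers and 757, 689 and 618 CPM in knockout livers. Replicates 1 and 2 of the knockout were above all WT livers and replicate 3 was level with the highest WT liver, or just above it when scaled by library totals (0.23 ± 0.107). Gsto1, an omega class enzyme that reduces dehydroascorbate, was at 74.2, 67.3 and 72.8 CPM in WT livers and 75.9, 65.9 and 75.7 CPM in knockout livers, with overlap (0.02 ± 0.0993).

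Genes that supply, regulate or export for these enzymes were read from lists of textbook genes, and edgeR called 0 of them. Glutathione supply held the clearest differences. Gclc, the catalytic subunit of the rate-limiting enzyme of glutathione synthesis, was at 491, 629 and 581 CPM in WT livers and 406, 424 and 341 CPM in knockout livers, all knockout livers being lower (-0.54 ± 0.129, Benjamini-Hochberg adjusted p = 0.552 in edgeR's quasi-likelihood fit and 0.0470 in DESeq2). Chac1, which breaks glutathione down, was at 1.03, 2.48 and 1.23 CPM in WT livers and 6.69, 4.34 and 4.81 CPM in knockout livers, all knockout livers being higher (1.73 ± 0.348, Benjamini-Hochberg adjusted p = 0.449 in edgeR's quasi-likelihood fit and 0.000306 in DESeq2). Oplah, which recycles oxoproline to glutamate, was the remaining gene of this list with an unadjusted p below 0.05 (-0.25 ± 0.109). Of 15 tested genes on the list, 5 were lower without overlap (Gclc, Gclm, Gsr, Oplah and Anpep, beside 6.01% of all tested genes) and 2 were higher (Chac1 and Chac2, beside 5.56%), names chosen after their values were seen, and the list's median was 0.01.

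Donor supply was nearly level. The list for UDP-glucuronate had 0 of 8 genes at an unadjusted p below 0.05 and a median of -0.03, the smallest p being that of Ugdh, which makes UDP-glucuronate (229 ± 26.4 and 197 ± 17.7 CPM, SD, n = 3, -0.21 ± 0.118). Of 10 genes for PAPS supply and sulfate removal 1 was lower at an unadjusted p below 0.05, beside 2.93% of all tested genes. It was Impad1, which clears the by-product of sulfation in the Golgi (60.0, 55.6 and 51.1 CPM in WT livers and 44.3, 44.1 and 50.6 CPM in knockout livers, -0.26 ± 0.106). Among 7 other glutathione transferases, of the membrane, mitochondrial and related classes, 0 reached that p and the median was 0.15, with the smallest p for Clic1, a chloride channel protein with a glutathione transferase fold (0.26 ± 0.153). The 10 exporters and uptake carriers of conjugates had a median of -0.19, with 8 below 0 and 0 at that p. The smallest p was that of the efflux pump gene Abcg2 (-0.25 ± 0.130).

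Of 20 regulators, 2 were lower at an unadjusted p below 0.05, beside 2.93% of all tested genes, and the median was -0.04. Nfe2l2, the gene for NRF2, was at 110, 67.9 and 84.5 CPM in WT livers and 64.8, 67.7 and 64.6 CPM in knockout livers, where WT replicate 2 stood just above the highest knockout liver (-0.41 ± 0.163). Bcl6, a repressor linked to sex-biased liver genes, was at 68.4, 15.2 and 74.6 CPM in WT livers and 21.9, 24.04 and 14.5 CPM in knockout livers, with WT replicate 2 as low as the knockout livers (-1.39 ± 0.504). Among 12 reference targets of the receptors, Cyp1a2, an AHR target of pericentral hepatocytes, was at 567, 588 and 666 CPM in WT livers and 733, 858 and 704 CPM in knockout livers, higher in each (0.33 ± 0.115). It was the 1 gene of this list at an unadjusted p below 0.05 (2.86% of all tested genes were higher at that p), and the list's median was -0.07.

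**Figure D5:**
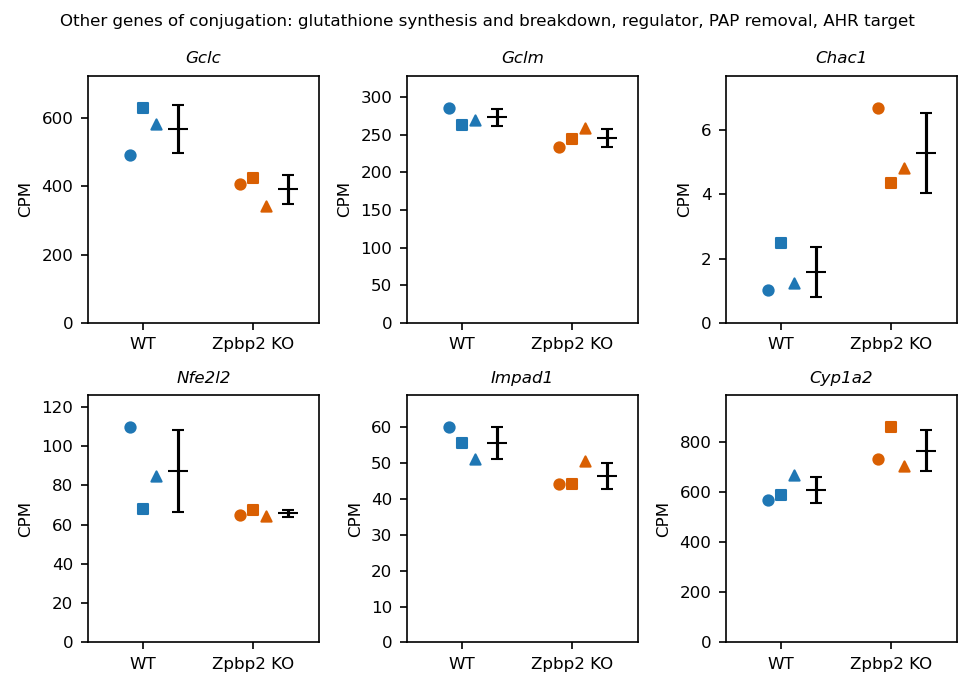
CPM in each liver of 6 genes outside the transferase families (blue WT, orange Zpbp2 KO; circle, square and triangle are replicates 1, 2 and 3), with mean and SD in black and axes from 0. The groups do not overlap in these 6 panels, with Gclc, Gclm, Nfe2l2 and Impad1 lower and Chac1 and Cyp1a2 higher in knockout livers. Impad1 is separated by a very small margin and overlaps when scaled by library totals. The 6 genes were chosen from the lists with their values known, and 11.6% of all tested genes had no overlap.

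Markers of cell types were measured beside the transferase genes. The 8 pericentral hepatocyte markers, from the zone around the central vein where many conjugating enzymes are high, summed to 6344 to 7259 CPM in WT livers and 7458 to 8403 CPM in knockout livers, without overlap. The sum of the hepatocyte markers given above did not overlap either. Alb carried most of that sum (70416 ± 4546 and 75686 ± 1550 CPM, SD, n = 3, with overlap), and 0 of the 9 hepatocyte markers were without overlap singly. Cyp1a2 is among the 8 pericentral markers, and Cyp2e1 carried most of their sum (4308 ± 435 and 5049 ± 388 CPM, SD, n = 3, with overlap). Axin2, a Wnt target on the same list, had lower values in all knockout livers (11.1 ± 0.958 and 7.19 ± 1.22 CPM, -0.62 ± 0.162) and the smallest unadjusted p of the list. Periportal markers overlapped in their sum, at 8525 to 9616 CPM in WT livers and 7750 to 9873 CPM in knockout livers. Of these 7 markers, 1 was higher without overlap (5.56% of all tested genes were) and 0 were lower. It was Ass1, the largest part of the sum in both groups (3027 ± 146 and 3545 ± 334 CPM, SD, n = 3, 0.23 ± 0.109). Pck1, the next largest, had a fold change below 0 with overlap (2786 ± 821 and 2090 ± 622 CPM, SD, n = 3, -0.41 ± 0.259). T and NK cell markers were very low, and their sums did not overlap on TMM-scaled sizes (4.29 to 5.13 and 5.46 to 6.04 CPM). They overlapped when scaled by library totals, and 0 of the 8 tested markers were without overlap singly. Kupffer cell markers overlapped (174 to 231 and 91.4 to 296 CPM), and the neutrophil genes Ly6g and Mpo had no count. The 6 erythroid markers summed to 154 to 227 CPM in WT and 170 to 359 CPM in knockout livers, and all 5 tested had a fold change above 0 (median 1.21). The beta globin gene Hbb-bs was at 14.4, 43.6 and 31.5 CPM in WT livers and 97.5, 97.7 and 23.7 CPM in knockout livers, so that knockout replicates 1 and 2 were high and replicate 3 within the WT range, as for Sult1b1, Gstm2, Gstm6 and Gstp3. The part of these shifts in the transferase values was not tested.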

How the data were processed

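The deposited values are whole-number read counts for each Ensembl ID in each library, which the authors made from poly(A) RNA libraries (250 ng of total RNA, read as pairs of 100 cycles) with STAR, Picard and HTSeq on mm9, per the submitters' processing notes. The tools' versions, the annotation and the strand setting were not given in the sources used here. Of 37991 IDs, 32919 were named from GENCODE M21 (GRCm38); coordinates are those of that reference, not of the counting. The labels name 3 livers per genotype, so the spread is between animals.

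Genes were kept by filterByExpr (minimum count 10), scaled by TMM and tested with edgeR 4.0.16 in R 4.3.3 (quasi-likelihood test, two-sided, Benjamini-Hochberg over 14686 genes, called below 0.05). Fold changes (log2, knockout over WT) are given ± SE. A count of 0 allows up to 3 counts, 0.0560 to 0.0786 CPM per library, for counting error only. The alternatives were DESeq2 1.42.0, limma-voom (limma 3.58.1), other scalings and filters, a replicate block, a robust fit, length and GC offsets, and each library left out. The fit was tested on simulated data. Promoter letters were searched on both strands.

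The transferase genes and the lists were chosen with earlier results of these data known. Values per liver are given for genes with an unadjusted p below 0.05 and for up to 2 of the most abundant tested genes of each family; of each list, genes below that p are named, or else the one with the smallest p. Genes outside this rule are given by fold change, or were named after their values were seen.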

Additional observations from a re-analysis of the deposited data

How the results depend on the processing

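The result of 0 called transferase genes held under each alternative run, with smallest adjusted p-values from 0.278 to 1.00 over the alternatives by edgeR, DESeq2 or limma-voom. Over all genes, 2 were called, against 76 by DESeq2, 12 without the filter on low counts and 2 to 4 with a library left out (4 without Zpbp2 KO replicate 2). Of the transferase genes, 6 with higher and 3 with lower values reached an unadjusted p below 0.05. Limma-voom gave 3 higher, the length and GC offsets 1 higher and 6 lower, near-identical pairs summed (chosen after seeing the data) 1 lower, and libraries left out 1 to 8 higher and 1 to 4 lower. Without Zpbp2 KO replicate 3, 1992 of all genes reached that p, against 850. The median over the tested transferase genes, 0.02, was -0.0516 with the length and GC offsets and ran from -0.0363 to 0.0853 with a library left out. Log2 fold changes near 0 changed sign. For Ugt1a1 they were -0.00631 by DESeq2, -0.0108 by limma-voom, -0.00631 with DESeq2's size factors, -0.0240 with library totals, -0.0114 with the replicate block, -0.0465 with the length and GC offsets and -0.148 to 0.125 with a library left out. For Gsto1 they were -0.00892 with library totals and -0.104 with the length and GC offsets, and for Gsta4 -0.0725 with those offsets. With a library left out, they ran from -0.0208 to 0.0853 for Gsto1, from -0.0552 to 0.220 for Gsta4, from -0.0211 to 0.211 for Gsta3, from -0.107 to 0.0461 for Ugt2b36 and from -0.0104 to 0.126 for Ugt2a3. The cause was not tested.

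Replicate numbers were treated as names. Same-numbered livers of the 2 genotypes correlated in their deviations at 0.133, 0.229 and -0.307, and livers of different numbers at -0.345 to 0.266. With 3 livers per group, these values cannot decide whether the numbers paired the livers. The replicate block gave 2 called genes, 0 of them transferase genes, with 5 transferase genes higher and 3 lower at that unadjusted p. Genes below 1 CPM rest on few reads.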
